A study of Mus musculus with 2 samples.

Results

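The Mir29 family of the mouse comprises 4 miRNA genes in 2 clusters, Mir29a with Mir29b-1 on chromosome 6 and Mir29b-2 with Mir29c on chromosome 1. The members were taken by matching the Ensembl identifiers of the count files to gene symbols, and all 4 were found among 1973 listed miRNA genes. Counts come from 2 small RNA libraries of whole limb, pooled from 109 and 88 healthy embryos of strain B6NCrl, both sexes together, at embryonic day 11.5. No agent, allele or transgene is named for either library, and neither another tissue nor another age is available for comparison. The replicates are labelled as biological but carry 1 donor identifier in common, so every SD below describes the spread between these 2 pools only. The p-values of the binomial and Fisher's tests below compare these 2 pools against counting error and do not measure that spread. Because limb was sequenced in bulk, fewer cells of a type and less RNA per cell cannot be told apart.

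A miRNA gene is transcribed as a longer primary RNA, from which a hairpin is cut and then trimmed to a mature strand of about the length of a sequencing read. Bases 2 to 8 of that strand, the seed, pair with sites in the 3′ UTRs of messenger RNAs and lower their stability and translation. The miR-29 strands are known as repressors of fibrillar and basement membrane collagens, elastin and fibrillin, and of the DNA methyltransferases Dnmt3a and Dnmt3b. In fibroblasts of heart, lung and kidney a loss of miR-29 accompanies fibrosis, and in many tissues the family is more abundant after birth than in the embryo. Limb mesenchyme at this stage lays down matrix and condenses into cartilage, which is why the level of these repressors is of interest here.

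The mature 3p strands show what the genes share and what the counts can and cannot separate. They are given 5′ to 3′ as RefSeq lists them on GRCm38.p6, with the seed in capitals.
miR-29a-3p, from Mir29a at chr6:31062673-31062694, minus strand: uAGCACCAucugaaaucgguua
miR-29b-3p, from Mir29b-1 at chr6:31063025-31063047, minus strand, and from Mir29b-2 at chr1:195037091-195037113, plus strand: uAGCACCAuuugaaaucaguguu
miR-29c-3p, from Mir29c at chr1:195037600-195037621, plus strand: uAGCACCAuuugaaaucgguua
All 4 genes carry the seed AGCACCA, and they were the only genes of the RefSeq table with it. Counted from the 5′ end, miR-29a-3p differs from miR-29c-3p by C10U alone, outside the seed. Over the 22 nt compared, miR-29b-3p differs from miR-29c-3p by A18G, G21U and U22A. The end of miR-29b-3p, AGUGUU at bases 18 to 23, is known from human cells as a signal for import into the nucleus. It closed 2 of 1679 mature names in the table. The 5p strands had 4 different seeds, so the family is defined by its 3p strands.

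The hairpins are printed to show which stretches the genes share, with the 3p strand in capitals.
Mir29a, chr6:31062660-31062747, minus strand: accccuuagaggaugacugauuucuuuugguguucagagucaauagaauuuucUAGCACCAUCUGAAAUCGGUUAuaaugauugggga
Mir29b-1, chr6:31063023-31063093, minus strand: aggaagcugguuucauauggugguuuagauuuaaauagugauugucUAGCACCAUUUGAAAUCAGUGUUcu
Mir29b-2, chr1:195037040-195037120, plus strand: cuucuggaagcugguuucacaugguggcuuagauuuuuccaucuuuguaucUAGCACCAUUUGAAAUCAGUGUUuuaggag
Mir29c, chr1:195037547-195037634, plus strand: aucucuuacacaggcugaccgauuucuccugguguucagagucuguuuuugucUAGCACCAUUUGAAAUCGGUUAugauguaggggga
Mir29b-1 and Mir29b-2 have a stretch of 25 nt in common, which holds the whole of miR-29b-3p with 2 bases before it. A read of that strand therefore fits both genes. The longest stretch that Mir29a shares with another member is 14 nt, with Mir29c. Mir29c and Mir29b-1 share 22 nt, but that stretch begins before the 3p strand and ends before the bases at which the strands differ.

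The clusters sit in different surroundings. On chromosome 6 the hairpins lie 275 bases apart on the minus strand, and Mir29b-1 overlaps the last 2 nt of the lincRNA Gm27019. On chromosome 1 they lie 426 bases apart on the plus strand, inside the last exon of a transcript of the noncoding gene A330023F24Rik. On the opposite strand both chromosome 1 hairpins overlap an exon of a Cd46 transcript; Cd46 encodes a membrane regulator of complement. The files count each strand separately, and the strand opposite to each of the 4 hairpins held 0 counts in both libraries.

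The counts assigned to the family were few. Reads of miR-29b-3p fit 2 genes and may be missing from them, so these values do not measure the whole family. Values are CPM, the counts of a gene scaled to a common total of sense counts over all miRNA genes; a read covers a whole mature strand, so counts were not divided by length. All 4 hairpins together had 284 counts in replicate 1 and 331 in replicate 2, of 2953085 and 3459176 sense counts. That is 96.2 and 95.7 CPM, or 95.9 ± 0.34 CPM (SD, n = 2). The Wilson 95% intervals were 85.6 to 108.02 CPM and 85.9 to 107 CPM, so the libraries differed by less than counting error. As if the family were 1 gene, its sum would take rank 202 of the 1973 genes. Mir335, the most abundant gene, had 111861 ± 1415 CPM (SD, n = 2).

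Nearly all of these counts fell on Mir29c and Mir29a. Mir29a had 70 counts in replicate 1 and 101 in replicate 2, which is 23.7 CPM (Wilson 95% interval 18.8 to 29.9) and 29.2 CPM (24.03 to 35.5). Mir29c had 210 and 228 counts, which is 71.1 CPM (62.1 to 81.4) and 65.9 CPM (57.9 to 75.04). In both libraries Mir29c was the higher of the pair, and their ranges did not overlap. Mir29b-1 had 2 counts in replicate 1 and 0 in replicate 2, and Mir29b-2 had 2 in each. Each of these values is at or under the 3 counts that a count of 0 allows, which stand for 1.02 CPM in replicate 1 and 0.867 CPM in replicate 2. No order between the Mir29b genes can be read from them. Intervals and floors cover counting error only, since PCR copies are not independent molecules.

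**Figure D1:**
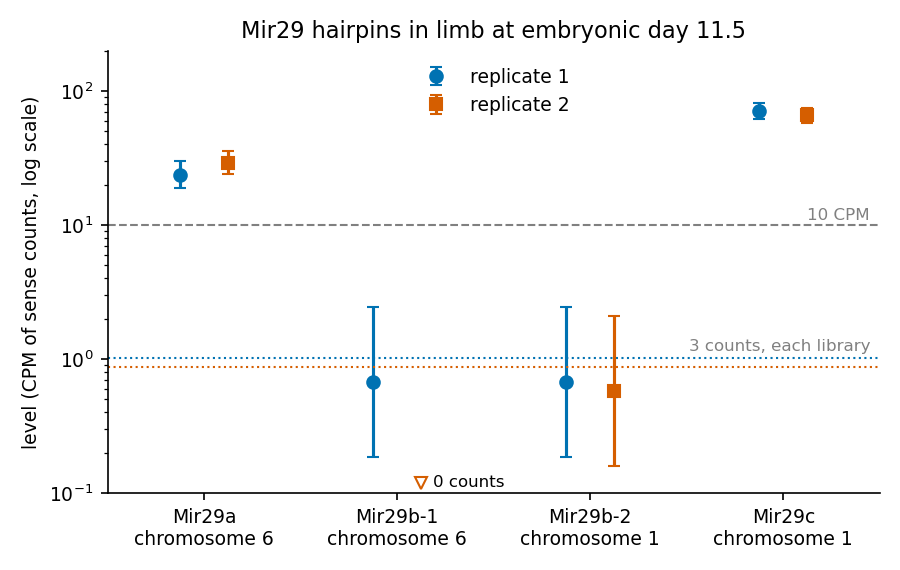
Level of each Mir29 hairpin in CPM on a log axis, with circles for replicate 1, squares for replicate 2 and Wilson 95% intervals as bars; dotted lines mark 3 counts in each library, the dashed line marks 10 CPM, and the open triangle at the lower edge stands for 0 counts, which a log axis cannot place. Mir29c lies at 71.1 and 65.9 CPM and Mir29a at 23.7 and 29.2 CPM, while the points of both Mir29b genes are under 1 CPM.

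At 10 CPM or more in both libraries, 2 of the 4 members were detected, Mir29a and Mir29c, against 15.0% of all 1973 genes. None reached 100 CPM in both, a level that 9.88% of all genes reached. By mean CPM Mir29c took rank 216 and Mir29a rank 259, and of the 295 detected genes 79 lay below Mir29c and 36 below Mir29a. The median detected gene stood at 262 CPM, above both. Mir29b-2 and Mir29b-1 took ranks 505 and 567, among genes with a few counts each.

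**Figure D2:**
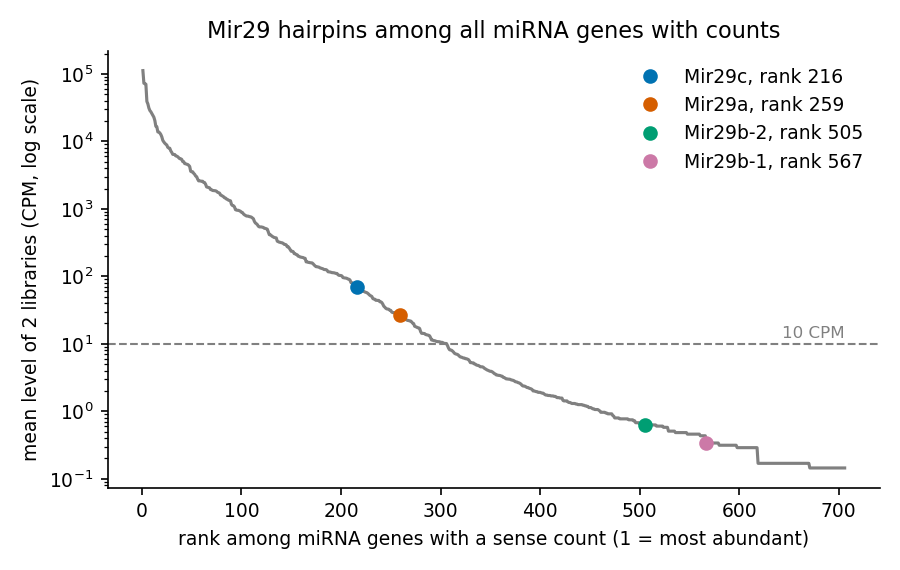
Mean CPM of the 2 libraries on a log axis for every miRNA gene with a sense count, ordered by rank, with the 4 Mir29 genes as coloured points and 10 CPM as the dashed line. Mir29c at rank 216 and Mir29a at rank 259 lie on the lower slope of the detected genes, and Mir29b-2 and Mir29b-1 lie in the tail under 1 CPM.

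In the order of mean level, the 2 genes directly above Mir29c were Mir152 and Mir218-2, and the 2 directly below were Mir192 and Mir204. Mir192, best known from gut, liver and kidney epithelium, had 69.8 and 67.1 CPM, and the mean log2 difference to Mir29c was −0.001 over the 2 libraries. The levels of Mir218-2 and Mir204 overlapped those of Mir29c as well. Mir152 lay just above, at 73.1 and 71.7 CPM. The 2 genes directly above Mir29a were Mir133b and Mir7689, and the 2 directly below were Mir8114 and Mir669e, each with values in the libraries that overlapped those of Mir29a. Mir133b, a skeletal muscle miRNA, had 31.2 and 23.99 CPM.

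The chromosome 1 cluster gave more counts than the chromosome 6 cluster. The chromosome 6 hairpins had 72 and 101 counts in replicates 1 and 2, against 212 and 230 for the chromosome 1 hairpins. The log2 ratio of chromosome 6 to chromosome 1 was −1.55 in replicate 1 and −1.18 in replicate 2, a mean of −1.37 ± 0.26 (SD, n = 2). Its counting error was 0.20 and 0.17. Chromosome 6 thus supplied 25.4% of the family's counts in replicate 1 (Wilson 95% interval 20.6 to 30.7%) and 30.5% in replicate 2 (25.8 to 35.7%). Both intervals lie below an equal split of the assigned counts. Reads of miR-29b-3p fit both clusters and may be missing, so the intervals do not bound the split of all Mir29 reads. With 2 libraries an exact sign-flip test cannot go below p = 0.5, so none was run.

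The ratio of the clusters is in effect that of Mir29a to Mir29c, because the Mir29b genes add at most 2 counts to each. Mir29a over Mir29c was −1.37 ± 0.29 on the log2 scale (SD, n = 2), with −1.58 in replicate 1 and −1.17 in replicate 2. Mir29c counts were 3.0 and 2.26 times those of Mir29a. Whether the ratio differed between the libraries was tested with a two-sided Fisher's exact test, which gave p = 0.125 for Mir29a and Mir29c and p = 0.177 for the clusters; both were 0.177 after Benjamini-Hochberg adjustment over the 2 tests. That test compares the libraries only. It does not show that the ratios are alike, and the spread between pools does not measure a bias of library preparation that both would share.

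Within each cluster the Mir29b hairpin had far fewer counts than its neighbour. Mir29a over Mir29b-1 was 35.0 in replicate 1, with an exact 95% counting interval of 9.33 to 294.7. In replicate 2, where Mir29b-1 had 0 counts, Mir29a was at least 33.7-fold higher, taking 3 counts as the floor of that library. Mir29c over Mir29b-2 was 105 in replicate 1 (28.7 to 873) and 114 in replicate 2 (31.2 to 947). These are ratios of assigned reads. Reads that fit several places in the genome stand on a line of their own in the files, at 1644176 and 1738400 reads, or 24.7% and 23.4% of all reads. That line was 5789 and 5252 times as large as the family's counts, and which genes its reads belong to is not recorded, so the values put no upper limit on mature miR-29b. The part of shared sequence in the low Mir29b counts was not tested.

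Other genes with a shared strand give the setting for these values. Of the listed genes, 916 had mature sequences in the RefSeq table, which is not complete. A mature sequence given for another gene too was found for 87 of them, and they held 2.24% of the sense counts, whereas 829 genes with sequences of their own held 95.9%. Like Mir29b-1 and Mir29b-2, 53 genes shared some of their strands and not all. Of those 53, 33 were detected and 11 had 4 counts or fewer over both libraries, the Mir29b genes among them. Of 34 genes with every listed strand shared, 5 were detected. The detected shares were 62.3% of the 53 and 14.7% of the 34, against 28.2% of the 829 genes with sequences of their own. Counts of 4 or fewer were found in 20.8% of the 53, 79.4% of the 34 and 52.5% of the 829. The classes hold different genes, and 286 of the 829 had no count in either library. These shares therefore do not isolate the effect of a shared strand, which was not tested.

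In assigned reads, Mir29 had the lowest sum beside 3 other small families that spread a seed over several loci. Multimapping reads are in no family's sum, so the order holds for assigned counts and not for the mature miRNAs. The Mir29 sum of 95.9 ± 0.34 CPM compares with 1159 ± 41.8 CPM for the family of Mir148a, Mir148b and Mir152, which represses the maintenance methyltransferase Dnmt1. It compares with 16794 ± 423 CPM for the Mir26 family, whose hairpins lie in introns of the Ctdsp phosphatase genes, and with 27931 ± 218 CPM for the Mir30 family (SD, n = 2 for each). On the log2 scale Mir29 over the family of Mir148a was −3.59 ± 0.05, Mir29 over Mir26 was −7.45 ± 0.03 and Mir29 over Mir30 was −8.19 ± 0.01. Each difference is far larger than the spread between the libraries. All members of these families were detected, against 2 of 4 for Mir29 and 15.0% of all 1973 genes. The 2 undetected members are the Mir29b genes, and the part of their shared 3p strand in this was not tested.

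Within the Mir26 and Mir30 families the hairpins with a shared strand had the lowest mean levels, but over all 3 families the levels of the classes overlapped. Mir26b, with its own sequences, had 16742 CPM, whereas Mir26a-2 had 38.7 CPM and Mir26a-1 had 13.4 CPM. Mir30e and Mir30a, each with sequences of its own, had 20379 and 4543 CPM. Their cluster neighbours Mir30c-1 and Mir30c-2, which share a strand with each other, had 110.3 and 29.1 CPM. Mir30d and Mir30b, for which the table holds no mature sequence, had 2758 and 111.7 CPM, so that Mir30b stood at the level of Mir30c-1. Mir148a, Mir148b and Mir152 share no strand and had 766, 321 and 72.4 CPM, and Mir152 thus lay below Mir30c-1. Mir29a and Mir29c belong to the hairpins with their own sequences. Of 6 such hairpins in the other families, all 6 had a higher mean level than Mir29a and than Mir29c, and Mir152 was the closest to them.

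**Figure D3:**
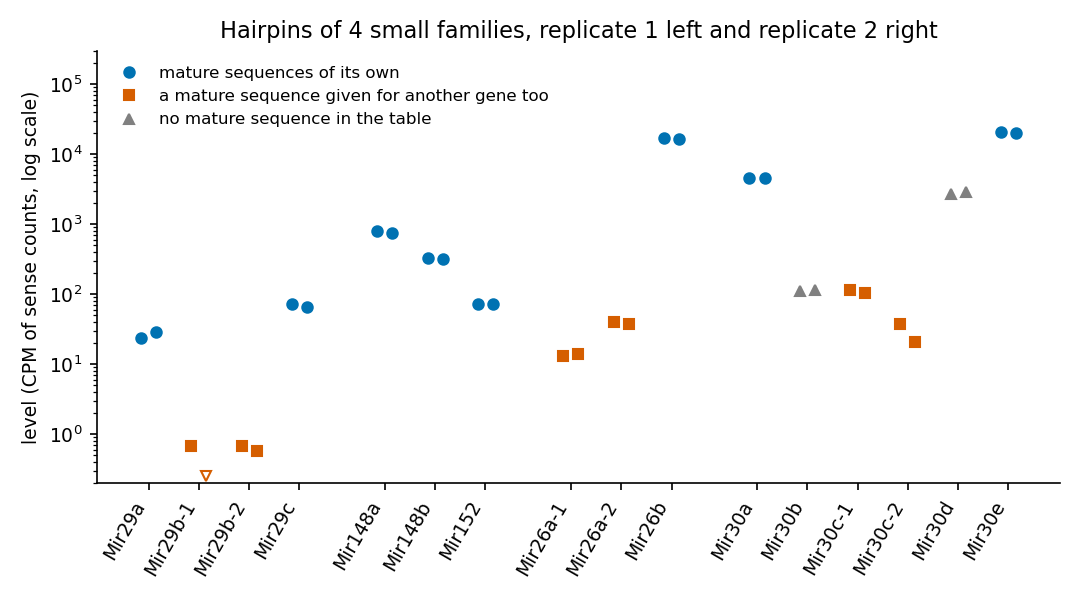
Level of each hairpin of the Mir29, Mir148 with Mir152, Mir26 and Mir30 families in CPM on a log axis, with replicate 1 to the left and replicate 2 to the right of each tick; circles are hairpins with mature sequences of their own, squares those with a mature sequence given for another gene too, triangles those with no mature sequence in the table, and the open symbol at the lower edge is 0 counts. Mir29a and Mir29c lie at or below 71.1 CPM, while Mir26b averages 16742 CPM and Mir30e 20379 CPM, and the highest squares, those of Mir30c-1, average 110.3 CPM.

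In assigned counts, other miRNAs with roles in matrix, cartilage and fibrosis were mostly more abundant. A list of 15 such genes was compared, of which 13 were detected, against 15.0% of all 1973 genes. The median level over all 15 was 199 CPM. Over all 1973 genes it was 0 CPM, as 1267 of them had no count in either library. Over the 295 detected genes alone it was 262 CPM. By mean CPM, 10 of the 15 listed genes lay above Mir29c and 13 above Mir29a. The order to Mir29a did not hold in each library for Mir30c-2 and Mir133b. In replicate 2 they had 20.5 and 23.99 CPM, below the 29.2 CPM of Mir29a. Mir214, from the noncoding gene Dnm3os, had 39072 CPM, and Mir140, a cartilage miRNA, had 13764 CPM. Mir21a, which promotes fibrosis in several adult organs, had 4423 CPM, and Mir455, which lies in an intron of the collagen gene Col27a1, had 1329 CPM. The genes below Mir29c were Mir199a-1, Mir30c-2, Mir133b, Mir133a-1 and Mir133a-2, of which the last 2 had no sense count. Mir199a-1 and Mir30c-2 have a mature sequence given for another gene too. For Mir133a-1 and Mir133a-2 the table holds no mature sequence. Multimapping reads are in none of these values, so the order holds for assigned counts and not for the mature miRNAs. The list was chosen with earlier results of these data known, so its order is a description.

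The libraries repeated Mir29a and Mir29c within counting error. The log2 ratio of replicate 2 over replicate 1 was 0.28 for Mir29a, with an exact 95% counting interval of −0.17 to 0.75, and −0.12 for Mir29c, with −0.40 to 0.16. By an exact binomial test against library sizes scaled by edgeR's TMM, adjusted over 422 tested genes, p was 0.495 for Mir29a and 0.652 for Mir29c. Neither passed at 0.05, whereas 21.3% of tested genes did, 40 of them (9.48% of those tested) with higher and 50 (11.8%) with lower values in replicate 2. Among 105 tested genes with a mean of 10 to 100 CPM, where both members lie, 6 passed, and the median absolute log2 ratio was 0.17. Of those 105 genes, 30 had a larger absolute ratio than Mir29a and 64 a larger one than Mir29c. The Mir29b genes had too few counts for the test. An interval as wide as that of Mir29a leaves room for a difference of more than 1.5-fold, so the test does not show that the pools hold the same level.

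**Figure D4:**
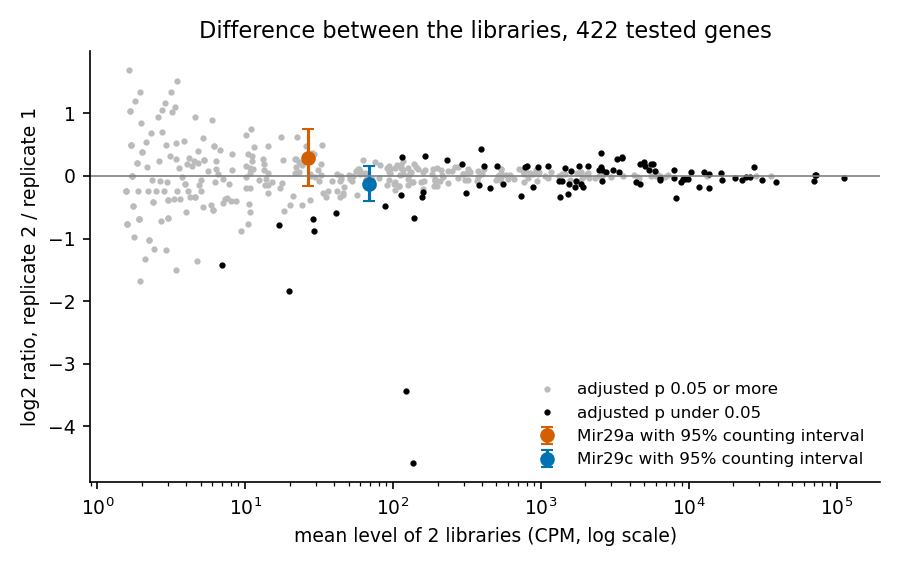
Log2 ratio of replicate 2 over replicate 1 against mean CPM on a log axis for 422 tested miRNA genes, black where the adjusted p was under 0.05 and grey otherwise, with Mir29a and Mir29c as coloured points with exact 95% counting intervals. The intervals of both members span 0, at log2 ratios of 0.28 and −0.12.

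Collagen messenger RNAs were not measured in these libraries, so repression could not be examined, and the targets can only be described by sequence. The 7 letters that pair with the seed, TGGTGCT, were searched on the transcript strand in the longest annotated 3′ UTR of each gene in GENCODE M21. Of 15 genes listed for their matrix role or as methyltransferases, 13 had a match and 10 had one followed by A, the form TGGTGCTA. Over all 20982 genes with a 3′ UTR, 13.1% had a match and 2.85% the longer form. Over the 14571 genes with a 3′ UTR as long as those of the list span, 438 to 6696 nt, the shares were 16.7% and 3.62%. Genes of these kinds are known as miR-29 targets, so this high share is no independent result.

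The matches differed among the matrix genes. Of 10 collagens, 9 had at least 1 match and 3 had at least 2. Col5a1, which starts fibril assembly, had 4 matches in 2498 nt, and Col11a1, of cartilage fibrils, and Col4a2, of basement membranes, had 2 each. Eln, for elastin, had 3 in 1188 nt and Fbn1, for fibrillin, had 2. Dnmt3a had 5 in 6696 nt, of which 2 were followed by A, and Dnmt3b had 1. Col1a2, which like Col1a1 encodes a chain of type I collagen, and Sparc had none. That says only that these letters are not in the windows searched. Sites of 3 fibrillar collagens are shown because they are the matrix genes most tied to skin, bone and cartilage, with the 7 letters in capitals, on GRCm38.
Col1a1, the chain of type I collagen in bone and skin, chr11:94952522-94952545, plus strand: ggtgggaaggaatttcTGGTGCTa
Col2a1, the collagen of cartilage, chr15:97975681-97975704, minus strand: tgcgtgtcctacacaaTGGTGCTa
Col3a1, the collagen of loose connective tissue, chr1:45348966-45348989, plus strand: cttcaaaatgtctcaaTGGTGCTa
In each of them the base after the 7 letters is A. Since all Mir29 members share the seed, these letters do not separate miR-29a from miR-29b or miR-29c. In counts that could be assigned, the hairpins with this seed came to 95.9 CPM, their 5p strands included.

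**Figure D5:**
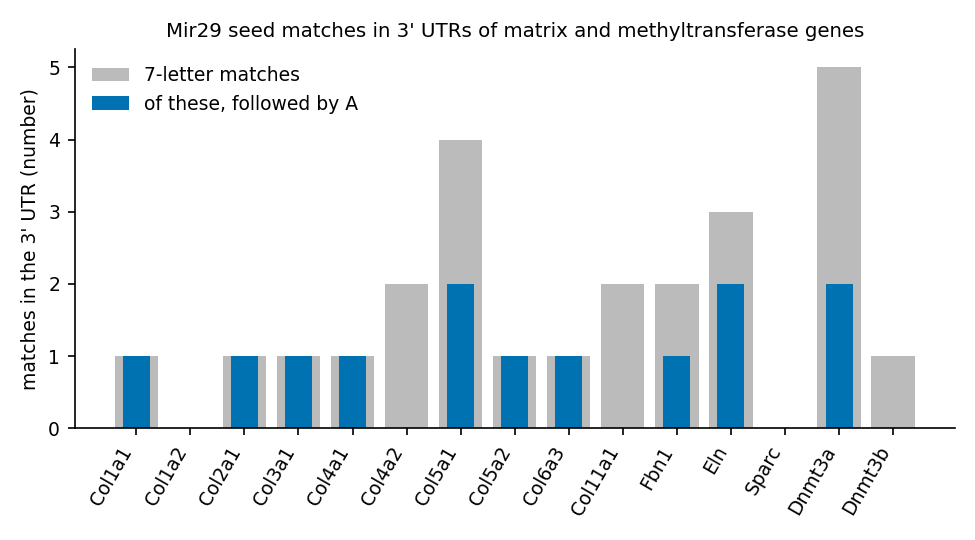
Number of 7-letter seed matches in the longest annotated 3′ UTR of 15 matrix and methyltransferase genes as grey bars from 0, with the matches followed by A as narrower blue bars. Dnmt3a has 5 matches, Col5a1 has 4 and Eln has 3, while Col1a2 and Sparc have none.

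Levels of miRNAs from the Hox clusters, the genes that pattern limb and trunk, were read beside the tissue label. No other tissue is available for comparison, so these levels do not test the label. Mir196b, Mir10b and Mir10a together held 12.3% ± 0.19 of the sense counts (SD, n = 2). Markers of other cells were present too, with 24194 CPM for the endothelial Mir126a, 540 CPM for Mir206 of skeletal muscle and 391 CPM for Mir451a of red blood cells. The epithelial Mir205, Mir203 and Mir200b had 5522, 3541 and 780 CPM. Mir155 and Mir223 of white blood cells had 413 and 274 CPM. Each of these was above the Mir29 sum, but that order depends on the marker named. Mir133b of skeletal muscle averaged 27.6 CPM and Mir144 of red blood cells 33.6 CPM. The endothelial Mir221 and Mir222 averaged 36.1 and 22.2 CPM, so all of these lay below the Mir29 sum. In which cells the Mir29 counts arose was not tested.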

How the data were processed

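Values are raw read counts for each miRNA gene as the authors deposited them, not normalized, with 1 file for each of 2 limb libraries. Assembly mm10 and GENCODE M4 are named in the deposited notes; which aligner and counter were used is not given in the sources used here. A gene is a hairpin, so its strands 5p and 3p cannot be told apart. The sense column was used, read from the values as the strand that holds nearly all counts. Lines for unmapped, multimapping and other unassigned reads stayed out of library sizes; sense counts were 44.3% and 46.6% of reads.

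Symbols and coordinates were taken from GENCODE M21 (assembly GRCm38, the same as mm10), which matched 1894 of 1973 identifiers; the other 79 held 4 sense counts. Sequences came from RefSeq on GRCm38.p6, where all 4 members matched, and 3′ UTRs from GENCODE M21 transcripts. CPM used all sense counts. A gene was detected at 10 CPM in both libraries. Genes with 10 or more summed counts entered a two-sided exact binomial test with TMM factors (edgeR 4.0.16, R 4.3.3) and Benjamini-Hochberg adjustment at 0.05. The test was also run on data simulated with counting error only, so that run does not cover a wider spread between libraries. edgeR's quasi-likelihood test needs a second group and was not used. Log2 ratios had a prior count of 0.5. Alternatives used size factors of DESeq2 1.42.0, other filters, denominators and columns, an overdispersed test and each library alone. Python 3.11.15 with scipy 1.17.1 did the rest. Members and lists were chosen with earlier results of these data known. Named genes are the members, the 2 genes directly above and below Mir29a and Mir29c in mean CPM, members of the lists, Mir335 and the marker genes. Mir144, Mir221 and Mir222 were named beside the planned markers.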

Additional observations from a re-analysis of the deposited data

How the results depend on the processing

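The family's share of 0.00959% depends on what it is divided by. It was 0.00436% of all reads, 0.0108% without Mir335, 0.00627% with multimapping reads added to the total and 0.00938% in the unstranded column, and 0.00957 to 0.00962% with each library alone. With each library alone, the log2 ratio of the chromosome 6 to the chromosome 1 cluster was −1.55 to −1.18 and that of Mir29a to Mir29c −1.58 to −1.17, and with a prior count of 5 they were −1.32 and −1.33. With a prior count of 0.5, Mir29a to Mir29b-1 was 6.24 (4.82 to 7.67 by library) and Mir29c to Mir29b-2 was 6.45 (6.40 to 6.51). With a prior count of 5 they were 3.91 and 5.00, as these values rest on 2 counts or fewer. Mir29b-1 to Mir29b-2 got no ratio because both are at or under 3 counts. By library, ranks ran from 253 to 261 for Mir29a, 215 to 217 for Mir29c, 477 to 630 for Mir29b-1 and 477 to 495 for Mir29b-2. Among genes with mature sequences of their own Mir29a took rank 208 and Mir29c rank 177, as fewer genes are ranked. At 100 CPM 0 members were detected and at 1 CPM 2. The overdispersed test called 48 genes, 21 higher and 27 lower in replicate 2, and the other 5 settings called 79 to 96. Mir29a had a log2 ratio of 0.28 to 0.30 and Mir29c of −0.12 to −0.11 in all 6, and neither passed in any, with adjusted p from 0.380 to 0.942 for Mir29a and 0.539 to 0.942 for Mir29c. No paired analysis was possible because the series has a single group. The Mir29b genes are at the limit of depth, and reads that fit both may be on the multimapping line.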
